A study of Mus musculus with 8 samples.

Results

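DL-Nnat neurons are 1 of the 7 subtypes into which the authors of this mouse study divided the excitatory neurons of the prefrontal cortex (PFC), and they were taken here as the cells that carry that name in the deposited annotation. They number 463, of 2775 excitatory neurons, 8997 annotated PFC cells and 23687 annotated cells in the whole series. The study asked how losing 1 copy of *Setd1a*, which encodes a methyltransferase of histone H3 lysine 4, changes the cells of the PFC and striatum, and profiled dissociated cells by droplet single-cell RNA sequencing. The 4 PFC libraries were 2 from wild-type (WT) mice and 2 from *Setd1a*+/- mice, each made from the pooled PFC of 2 animals, so that a library and not a mouse or a cell was the replicate.

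All animals were untreated C57BL/6N males per the labels, and the WT mice were littermates. The *Setd1a*+/- animals carry a CRISPR-Cas9 frameshift that stops translation before the catalytic SET domain, in every tissue and from birth. The labels give an age of 8 to 10 weeks, whereas the study's methods give an older age. The libraries are called WT 1, WT 2, *Setd1a*+/- 1 and *Setd1a*+/- 2, where a shared number marks a shared biological replicate. In that order they held 64, 234, 88 and 77 DL-Nnat neurons, with a median of 10719, 5763.5, 7570 and 6843 unique molecular identifiers (UMIs, 1 per captured RNA molecule) per cell. The sums over these cells, 700606, 1433835, 663679 and 555116 UMIs, are the depth behind every level below.

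The gene that names the subtype, *Nnat*, encodes neuronatin, a small membrane proteolipid of the endoplasmic reticulum, and is an imprinted gene read from the paternal copy. Cortical excitatory neurons release glutamate and fall into classes by layer and axonal target, among them corticothalamic and near-projecting cells of the deepest layers, extratelencephalic cells of layer 5 that project below the cortex, and intratelencephalic cells of all layers that project within the telencephalon. Each class is recognised by transcription factors and adhesion molecules, and many cortical neurons also make neuropeptides. Opioid peptides such as enkephalin, made from *Penk*, and receptors such as the kappa-opioid receptor, made from *Oprk1*, form 1 such signalling system.

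The markers of the subtype were checked first. Levels are given as CPM, the usual scaling of a gene's UMIs to 1 fixed total over the same cells of a library, in the library order above. *Nnat* (ENSMUSG00000067786, mouse GRCm38 chr2:157560078-157562522, plus strand, inside an intron of *Blcap* on the other strand) stood at 224, 433, 267 and 213 CPM in DL-Nnat neurons, a mean of 284 ± 102 (SD, n = 4 libraries). WT 2 was the highest library, and the genotypes overlapped. The next subtype was DL-Foxp2, at a mean of 72.8 CPM with libraries from 2.57 to 120 CPM, so that no DL-Foxp2 library reached the lowest DL-Nnat library. SL-Myh7 had a mean of 70.1 CPM, which rested on WT 1 at 186 CPM, and SL-Cux2 was lowest at 2.10 CPM.

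*Oprk1* (chr1:5588466-5606131) stood at 40.0, 54.4, 61.8 and 27.0 CPM in DL-Nnat neurons. All 4 values lay above the highest library of DL-Etv1, which was next with a mean of 13.4 CPM, and no UMI was found in SL-Myh7, DL-Pou3f1 or DL-Tshz2 cells. *Galnt14* (chr17:73493228-73710453), an enzyme that starts O-linked glycosylation, stood at 67.1, 49.5, 60.3 and 46.8 CPM. Its mean of 55.9 CPM was the highest of the 7 subtypes but overlapped DL-Tshz2, at 45.7 CPM. *Penk* (chr4:4133531-4138819) was 65.7, 50.9, 22.6 and 37.8 CPM, a mean of 44.3 CPM that came second to SL-Myh7 with 77.4 CPM. The plot of marker levels by subtype shows that *Nnat* and *Oprk1* set the cells apart from all other subtypes in every library, whereas *Galnt14* and *Penk* were each shared with 1 other subtype. These differences chose the cells, since the authors clustered on expression, and they carry no test.

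**Figure D1:**
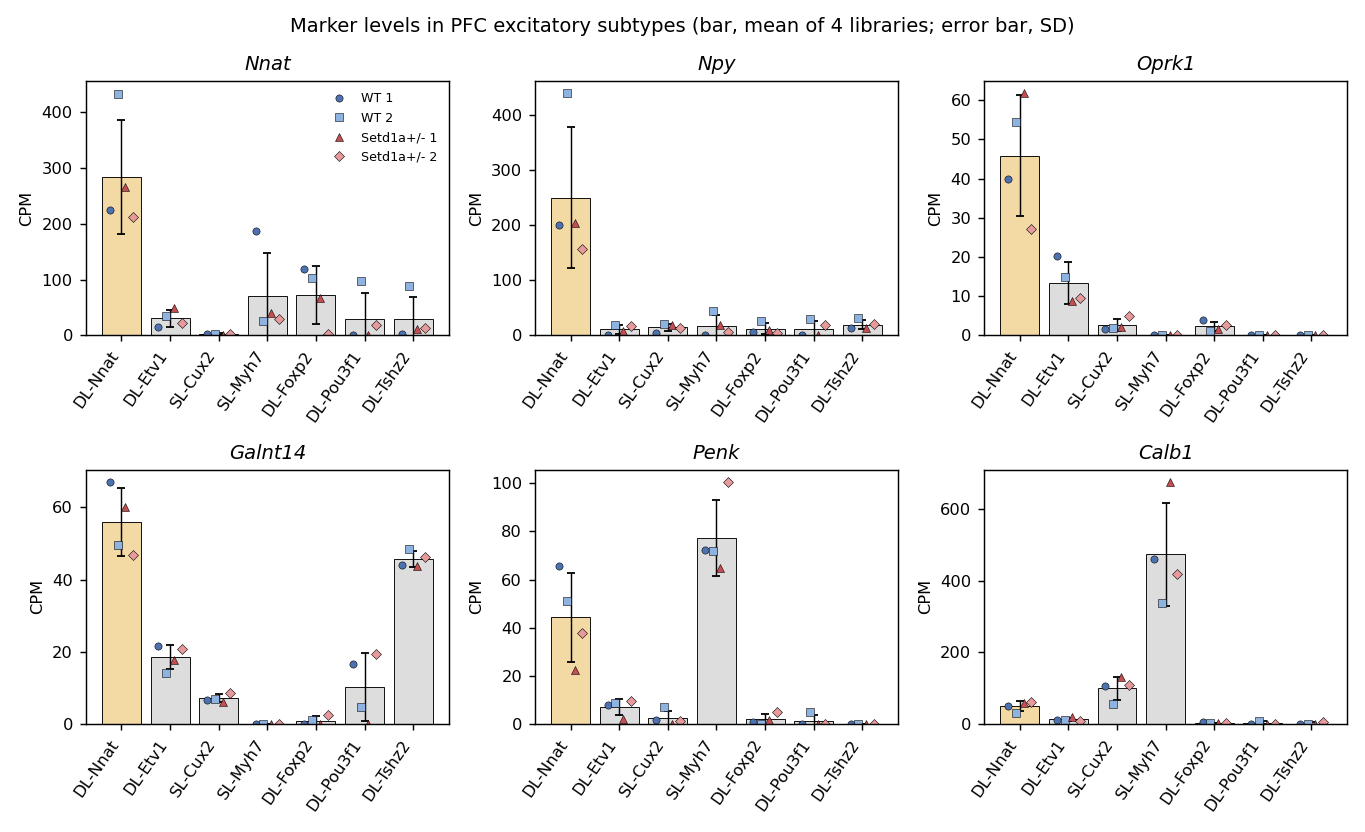
Levels of 6 genes in the 7 excitatory subtypes (y axis, CPM from 0; points, the 4 libraries; bars and error bars, their mean and SD). DL-Nnat neurons are the highest subtype for Nnat, Npy, Oprk1 and Galnt14, while SL-Myh7 neurons are higher for Penk (77.4 against 44.3 CPM) and Calb1.

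Genes of the cortical layers were then read in the same cells. Of 3765 genes at 50 CPM or more in DL-Nnat or the mean of the other 6 subtypes, 12 (0.319%) were at least 2-fold higher and 35 (0.93%) at least 2-fold lower in DL-Nnat with the same direction in all 4 libraries, on a scale of CPM + 5, and 197 (5.23%) were highest in DL-Nnat of the 7 subtypes. Most layer genes at that level reached it only through the other subtypes, where they are high, and *Foxp2*, *Tshz2* and *Etv1* also name other clusters, so their lower levels are a description. The corticothalamic genes *Foxp2* (2.96 CPM against a mean of 60.2 CPM), *Tle4* (14.9 against 124 CPM) and *Crym* (108 against 352 CPM) were lower in 4 of 4 libraries. So were *Tshz2* (5.31 against 388 CPM) and *Lypd1* (8.41 against 138 CPM) of near-projecting cells, *Bcl11b* (49.9 against 114 CPM) and *Fezf2* (21.5 against 74.2 CPM) of extratelencephalic cells, and *Etv1* (115 against 264 CPM) of intratelencephalic cells. None of 5 layer 6b genes reached 50 CPM. Of 4 superficial layer genes at 50 CPM, with a median log2 ratio of -0.97, *Lamp5* (36.7 against 118 CPM), *Rasgrf2* (26.8 against 60.4 CPM) and *Calb1* (50.5 against 98.9 CPM) were lower. The *Calb1* mean of the others came from SL-Myh7 (473 CPM) and SL-Cux2 (100 CPM). DL-Nnat was above the other deep-layer subtypes for it, of which DL-Etv1 was highest (13.2 CPM). The remaining superficial layer gene, *Rorb*, a transcription factor best known from layer 4 and layer 5, was above the mean of the other subtypes in 4 of 4 libraries at 110, 83.0, 99.4 and 177 CPM. Its mean of 117 CPM was close to DL-Etv1 (113 CPM) and below every library of SL-Cux2 (279 CPM). A *Rorb* UMI was found in 28.1% of DL-Nnat, 53.0% of DL-Etv1 and 62.0% of SL-Cux2 cells, or 13.4, 18.1 and 36.5% after thinning each cell to 2000 UMIs. The excitatory identity was plain: all 6 pan-excitatory genes reached 50 CPM with no 2-fold difference, and *Slc17a7*, the vesicular glutamate transporter, had a UMI in 82.5% of the cells. *Gad1*, which interneurons use to make GABA, gave 1 UMI in each of 8 cells. The subtype is called DL-Nnat below because the annotation does so.

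*Npy*, which encodes neuropeptide Y and was not among the naming genes, had the largest ratio of all. It stood at 200, 439, 203 and 157 CPM in DL-Nnat neurons (249.8 ± 128 CPM) and between 10.9 and 19.6 CPM in the means of the other 6 subtypes, a log2 ratio of 3.72. No library of another subtype came near the lowest DL-Nnat library. PFC inhibitory neurons, where *Npy* marks a major class, had 11458 CPM, so the DL-Nnat level is low beside theirs. Oligodendrocyte progenitors averaged 366 CPM (libraries from 117 to 1007 CPM) and astrocytes 198 CPM (17.1 to 722 CPM). A level like that of DL-Nnat was thus also found in glia, and the high ratio holds among excitatory subtypes only. The 6 interneuron markers summed to 1.80 to 44.6 CPM in the DL-Nnat cells of a library and to 6.97 to 41.7 CPM in the other excitatory cells, and their part in the *Npy* level was not tested.

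The genes that led after *Npy*, *Nnat* and *Galnt14* were of several kinds. *Thsd7a*, a thrombospondin-domain protein, had a log2 ratio of 1.63, and *Cryab*, a small heat shock protein, 1.42. *Slc24a3* (1.25) and *Slc24a2* (1.03) encode potassium-dependent sodium-calcium exchangers, and *Htr2a* (1.18) the serotonin 2A receptor. *Rasl10a* (1.37), a Ras-like GTPase, *Bmp3* (1.18), a ligand of the TGF-beta family, *Dok5* (1.06), an adaptor of receptor tyrosine kinases, *Sorcs3* (0.98), a sorting receptor, *Cdh13* (0.97), a cadherin without a cytoplasmic tail, *Rspo2* (0.96), an enhancer of Wnt signalling, and the noncoding *Gm2694* (1.54) completed the 15. Of these, *Bmp3* lay above every library of the next subtype, as *Npy* and *Nnat* did, and the others overlapped at least 1 subtype or were lower than one. *Slc24a3* was 80.8 CPM against 88.2 CPM in DL-Etv1, and *Htr2a* 73.8 CPM against 74.1 CPM in SL-Cux2.

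The genes lowest in DL-Nnat neurons were mostly those that name or mark DL-Tshz2 and DL-Foxp2. *Tshz2* had a log2 ratio of -5.25, *Il11ra1* -3.46, *Lypd1* -3.42 and *Zcchc12* -2.93, each highest in DL-Tshz2. *Rprm* (-3.69) and *Foxp2* (-3.03) were highest in DL-Foxp2, and *Tle4*, a corepressor of corticothalamic cells, stood at -2.70. *Grp*, the gastrin-releasing peptide, was lowest of the 7 subtypes in DL-Nnat at 31.9 CPM.

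The lists of neuronal genes were read beside all genes, whose median log2 ratio was -0.02 and of which 0.319% were 2-fold higher and 0.93% lower, so that lists of this size would hold few or no such genes in any case. All 17 synaptic vesicle genes reached 50 CPM, with a median of 0.15 and no 2-fold difference. None of 18 potassium and HCN channel genes, 9 glutamate receptor genes or 8 GABA-A receptor genes was 2-fold apart, with medians of 0.21, 0.0096 and -0.12. Of 8 imprinted genes, *Nnat* was the only one 2-fold higher, and the list's median was -0.18. No opioid gene reached a mean of 50 CPM. *Pomc*, the precursor of beta-endorphin, was highest in DL-Nnat at a mean of 16.5 CPM, and *Oprl1*, the nociceptin receptor, was 25.0 CPM against 23.6 CPM in the others.

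Of the other subtypes DL-Etv1 was the nearest. In all, 28 of 3738 genes (0.749%) differed 2-fold between DL-Nnat and DL-Etv1 in all 4 libraries, against 80 (2.09%) for SL-Cux2, 163 (4.12%) for DL-Pou3f1, 169 (4.35%) for SL-Myh7, 241 (6.3%) for DL-Foxp2 and 571 (14.1%) for DL-Tshz2. DL-Pou3f1 had only 62 cells, 7 to 35 in a library, which makes the same direction in all 4 harder to meet. By Spearman correlation across genes within a library, DL-Etv1 (0.929 to 0.942) and SL-Cux2 (0.887 to 0.911) were again nearest, and DL-Pou3f1 (0.757 to 0.871) reached lower than SL-Myh7 (0.838 to 0.872) and DL-Foxp2 (0.844 to 0.882). The genes higher than in DL-Etv1 were led by *Npy*, *Nnat*, *S100a6* (111 against 17.8 CPM), a calcium-binding protein, *Cdh13* (134 against 36.8 CPM) and *Calb1*, the calcium buffer calbindin (50.5 against 13.2 CPM). Those lower were led by *Rprm*, *Deptor*, an inhibitor of the mTOR kinase, and *Stxbp6*, a SNARE-binding protein. Over the 28 profiles of 7 subtypes in 4 libraries, the genes whose log2 level correlated best with that of *Nnat* were *Rasl10a* (r = 0.71), *Slc24a2* (0.64), *Npy* (0.62), *Sulf1* (0.62) and *Arhgef4* (0.61). Subtypes of 1 library share its depth and handling, so these are descriptions.

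The cells named DL-Nnat were not alike in *Nnat*. A *Nnat* UMI was found in 201 of 463 cells (43.4%, 95% Wilson interval 39.0 to 48.0%), and after the same thinning, which left out 22 shallower cells, in 30.8% of 441. The thinned shares of other subtypes ran from 0.542% in SL-Cux2 to 13.1% in DL-Pou3f1. Among other cells a *Nnat* UMI was found in 58.6% of oligodendrocyte progenitors (median 1651 UMIs per cell), against 1.41% of endothelial cells (2368 UMIs), 1.59% of oligodendrocytes (2056 UMIs) and 13.2% of astrocytes (2026 UMIs). Newly formed oligodendrocytes (25.1%, 2802 UMIs) and inhibitory neurons (13.8%, 5203.5 UMIs) lay in between. Among DL-Nnat neurons 262 cells had none, 135 had 3 or more and the highest had 29, and the 47 cells with the most held 54.0% of all *Nnat* UMIs. *Npy* was more uneven, with 75.9% of its UMIs in the top 47 cells. At 2000 UMIs, 46.7% of the cells had a UMI of at least 1 of *Nnat*, *Npy*, *Oprk1*, *Penk* and *Galnt14*, against 4.70 to 20.5% in the other subtypes, and 23.1% had at least 2, against 1.64% or less.

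The cells with and without a *Nnat* UMI were then set side by side in each library. This split was chosen after the data were seen, uses a measured value and carries no test. Cells with a *Nnat* UMI numbered 32, 107, 42 and 20 in the 4 libraries (45.7 to 50% of DL-Nnat cells, but 26.0% in *Setd1a*+/- 2). Their median over all libraries was 7634 UMIs per cell, against 6662 UMIs in the cells without one. By library the medians were 10113.5, 6924, 7556 and 7735 UMIs with *Nnat* and 11523, 5066, 7570 and 6117 UMIs without. Of 3897 genes at 50 CPM or more in either set, 27 (0.693%) were at least 2-fold higher and 111 (2.85%) at least 2-fold lower in the cells with *Nnat*, in all 4 libraries. A gene that is low in one set enters only through the other, so counts over the members of a list are descriptions, to be read beside these shares.

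Levels of *Npy* and *Oprk1* were higher in cells with a *Nnat* UMI. *Npy* was 426, 791, 412 and 461 CPM in these cells and 2.67, 72.7, 11.6 and 35.3 CPM in those without, with no overlap and a log2 ratio of 3.89. *Oprk1* averaged 73.0 against 22.0 CPM and *Galnt14* 84.7 against 34.4 CPM, each higher in 4 of 4 libraries. *Cdh13* averaged 227 against 59.2 CPM, and *Ramp3*, which modifies receptors of the calcitonin family, 77.9 against 11.6 CPM. *Grp* had a ratio of 1.84, although DL-Nnat was the lowest subtype for it. Of 4 genes known from the claustrum and layer 6 *Car3* cells at 50 CPM, *Nr4a2*, an orphan nuclear receptor, and *Gnb4*, a G protein subunit, were 2-fold higher and *Synpr*, a synaptic vesicle protein, was 2-fold lower, with a list median of 0.87. *Nr4a2* was 46.0, 13.7, 25.1 and 152 CPM with *Nnat* and 2.67, 5.70, 17.4 and 27.7 CPM without, a ratio of 1.80 that leaned on *Setd1a*+/- 2. After thinning, *Nr4a2* and *Nnat* met in 5 cells where the product of their shares gives 4.44. *Penk* was the exception among the markers, at a ratio of 0.42 and higher in 3 of 4 libraries.

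Cells without a *Nnat* UMI carried *Rorb* and several of the genes that led for the subtype as a whole. *Thsd7a* was 90.8, 71.3, 162 and 78.1 CPM in these cells, and 0, 2.73, 0 and 0 CPM in the cells with *Nnat*. *Rorb* was 198, 145, 182 and 239 CPM against 9.20, 23.2, 9.43 and 18.9 CPM. *Slc24a3* (log2 ratio -2.33), *Htr2a* (-1.46) and *Etv1* (-1.83) had the same direction in 4 of 4 libraries, as did *Synpr* (-1.41). The high levels of *Thsd7a* and *Slc24a3* in DL-Nnat neurons therefore came mainly from cells in which no *Nnat* was found. *Htr2a* was also higher in those cells, at a mean of 104 CPM against 34.7 CPM in the cells with *Nnat*. The latter level was still slightly above the mean of the other subtypes, 29.7 CPM. *Slc17a7* (-0.27) differed less between the sets. Of 18 potassium and HCN channel genes at 50 CPM, 4 were 2-fold lower in cells with *Nnat* (*Kcna2*, *Kcnb2*, *Kcnh7* and *Kcnq3*) and 0 were 2-fold higher, with a median of -0.47. Of 12 guidance and adhesion genes, 3 were 2-fold higher (*Sema3e*, *Efnb3* and *Cdh13*) and 3 were 2-fold lower (*Epha4*, *Robo2* and *Slit2*), with a median of -0.13. Over all genes the shares were 0.693% higher and 2.85% lower, with a median of -0.0026.

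**Figure D2:**
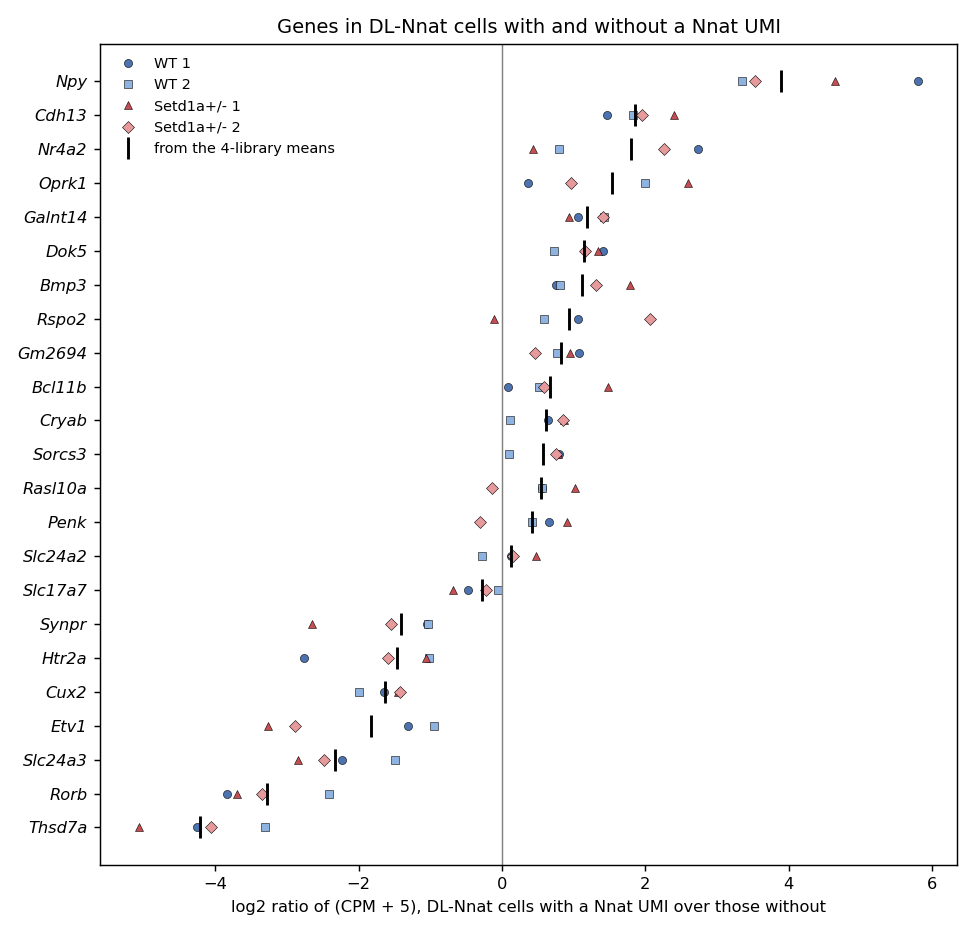
Log2 ratio of CPM + 5 between DL-Nnat cells with and without a Nnat UMI for 23 genes (x axis; points, the 4 libraries; bars, the ratio of the means of the 4 libraries). Npy lies at 3.89 and Thsd7a at -4.22, with every library on the same side of 0 for both.

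Counted in single cells, the pairs with *Nnat* restate these levels, since *Rorb* and *Thsd7a* were picked as low in cells with *Nnat*. There were 2 cells with UMIs of both *Nnat* and *Thsd7a*, where the product of their shares gives 30.8 cells, and 21 had *Nnat* and *Rorb*, where it gives 56.4. *Rorb* and *Thsd7a* were found together in 60 cells against 19.9. Both were picked as low in cells with *Nnat*, which by itself lifts their meeting above that product, so this pair is no separate support. *Nnat* and *Npy* were found together in 108 cells against 64.7, and *Oprk1* and *Rorb* in 4 against 27.2. *Penk* and *Npy* met in 22 cells against 21.6. Counted over the 4 libraries, 179 cells had *Nnat* but neither *Rorb* nor *Thsd7a*, 119 had *Rorb* or *Thsd7a* but no *Nnat*, 22 had both and 143 had neither. *Nnat* alone marked 45.3, 39.7, 45.5 and 22.1% of the DL-Nnat cells of the 4 libraries, and *Rorb* or *Thsd7a* alone 29.7, 18.8, 30.7 and 37.7%. The makeup of the subtype thus differed most in *Setd1a*+/- 2, which the plot of cell sets by library shows, while *Setd1a*+/- 1 had nearly the shares of WT 1.

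**Figure D3:**
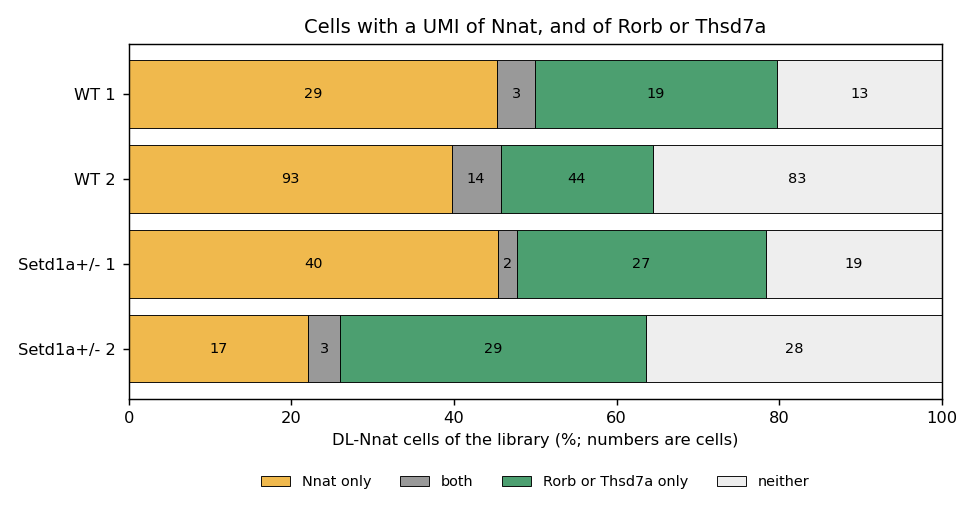
Share of the DL-Nnat cells of each library (x axis, percent; numbers in the bars, cells) with a UMI of Nnat alone, of Rorb or Thsd7a alone, of both kinds or of neither. Setd1a+/- 2 has the smallest share with Nnat alone (22.1%) and the largest with Rorb or Thsd7a alone (37.7%).

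Against the other subtypes the sets lay at unequal distances. Cells without a *Nnat* UMI differed 2-fold from DL-Etv1 in 19 of 3799 genes (0.500%) and from SL-Cux2 in 57 (1.46%). Cells with a *Nnat* UMI differed from DL-Etv1 in 125 of 3808 genes (3.28%) and from SL-Cux2 in 223 (5.85%). For DL-Foxp2 the counts were 287 and 259, and for SL-Myh7 232 and 206.

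**Figure D4:**
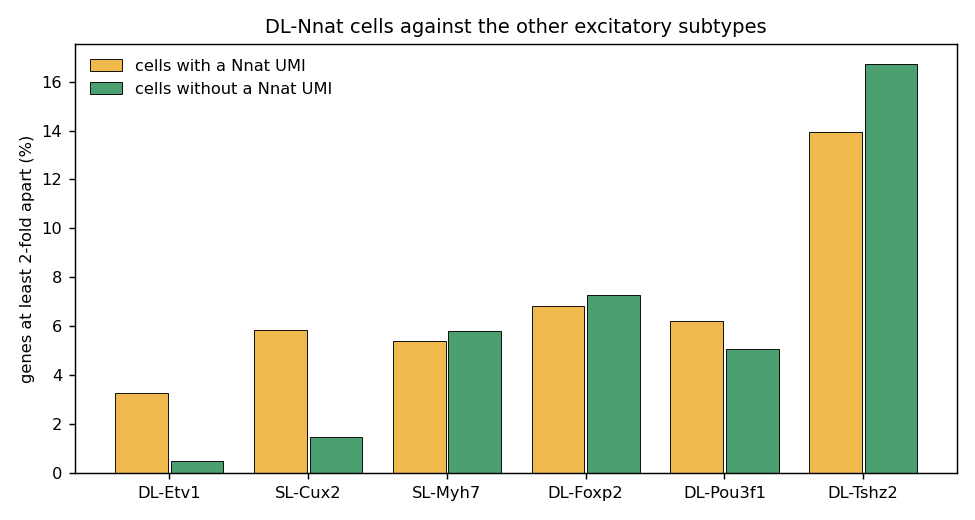
Genes at least 2-fold apart in all 4 libraries (y axis, percent of genes compared) between DL-Nnat cells with or without a Nnat UMI and each other subtype. The cells without a Nnat UMI are 0.500% apart from DL-Etv1, against 3.28% for the cells with one.

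The share of DL-Nnat cells among excitatory neurons was compared between genotypes. The WT libraries had 15.6 and 19.7% and the *Setd1a*+/- libraries 12.7 and 15.9%, so the groups overlapped, and the share was lower in *Setd1a*+/- within each replicate. The means of 17.6 ± 2.88 and 14.3 ± 2.26% (SD, n = 2) differed by -3.33 percentage points with an exact permutation p of 0.667 (two-sided), where 2 libraries against 2 cannot give less than 0.333. Within replicates, the exact permutation p was 0.5, the smallest that 2 pairs allow.

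Before genotypes are compared within DL-Nnat neurons, some facts of the libraries matter. *Setd1a* itself gave 8, 23, 5 and 4 UMIs in these cells, or 11.4, 16.0, 7.53 and 7.21 CPM, lower in both *Setd1a*+/- libraries but below the count filter and not tested. Some differences followed the replicate. On the scale of CPM + 5, and over genes with 50 UMIs or more, a gene was counted where the lower of a pair of libraries was at least 4-fold above the higher of the other pair. This made 18 of 7449 genes (0.242%) lower in replicate 1 of both genotypes, among them *Mt3* (2.85, 871, 0 and 730 CPM) and *Syp* (61.4, 417, 30.1 and 519 CPM), and 5 (0.0671%) higher, while by the same rule no gene differed between the genotypes. None of the 463 DL-Nnat barcodes was shared between DL-Nnat cells of different libraries, and 3 were also annotated in another library under another name.

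No gene was called between genotypes in DL-Nnat neurons by the main fit, in which a library was the replicate. The study, which tested single cells, did report differentially expressed genes for this subtype. With edgeR's quasi-likelihood test on the UMIs summed per library, 0 of 7701 genes (0.0%) passed a false discovery rate (FDR, Benjamini-Hochberg) under 0.05 with a fold change (FC) above 1.5, and DESeq2 called 0. At an unadjusted p under 0.05 there were 164 genes by edgeR (2.13%; 85 higher and 79 lower in *Setd1a*+/- mice) and 27 by DESeq2. With the replicate as a block 2 genes were called, both lower: *Hbb-bs*, a haemoglobin gene dealt with below, and *Gm42418*, a predicted gene known to gather ribosomal RNA reads (163, 62.1, 9.04 and 25.2 CPM, log2 FC -2.68, FDR 0.00797). In the other 6 subtypes *Gm42418* was also lower in both *Setd1a*+/- libraries, at 164, 58.1, 18.7 and 37.4 CPM. The 2 libraries of a genotype lay wholly above those of the other for 1201 genes (15.6%) and wholly below for 1004 (13.0%), which is the background for the genes that follow.

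Immediate early genes, which neurons switch on within minutes of activity, lay mostly above 0. Of 13 tested, 12 had a log2 FC above 0 with a median of 0.58, against -0.01 over all genes, 5 of the 13 lay wholly above WT, and 0 were called. *Egr1* was 231, 199, 384 and 450 CPM (log2 FC 0.95, SE 0.23), *Nr4a1* 75.6, 58.6, 124 and 184 CPM (1.20, SE 0.29), and *Fos* 138, 108, 209 and 277 CPM (0.98, SE 0.26). In each the *Setd1a*+/- libraries were both higher and the groups did not overlap, with an edgeR FDR of 0.9999. *Egr3* and *Btg2* showed the same order. In the other 6 subtypes *Nr4a1* was 73.5, 92.4, 152 and 96.3 CPM, where the groups did not overlap either. *Fos* was 120, 140, 204 and 130 CPM there, and the groups overlapped. Without *Setd1a*+/- 1, edgeR called *Fos* (1.20, FDR 0.0271) and *Nr4a1* (1.49, FDR 0.00461), and without *Setd1a*+/- 2 they stood at 0.73 (FDR 0.368) and 0.85 (FDR 0.313). In both fits the WT libraries alone gave the spread, and the lone *Setd1a*+/- library was assumed to vary as they do. The median mitochondrial share of DL-Nnat cells was also higher in both *Setd1a*+/- libraries, at 4.00, 4.77, 5.65 and 5.11%. *Egr1* averaged 244 CPM in cells with a *Nnat* UMI and 388 CPM in those without, whose share differed by library. *Fos* averaged 220 against 176 CPM and *Nr4a1* 113 against 117 CPM, so these genes did not share a direction. In *Setd1a*+/- 2 *Egr1* was 474 CPM with *Nnat* and 441 CPM without. The part of the mitochondrial share or of the share of cells with *Nnat* in these values was not tested.

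Of the other genes separated by genotype, *Inhba*, which encodes a subunit of activin A, stood at 38.5 and 56.5 CPM in the WT libraries against 13.6 and 10.8 CPM in the *Setd1a*+/- libraries (log2 FC -2.00, SE 0.39). It had the smallest p of all the separated genes on either side, with an edgeR FDR of 0.9999. The *Inhba* levels rest on 27, 81, 9 and 6 UMIs in the library order above, found in 18, 52, 7 and 5 cells. *Wwox*, an oxidoreductase, was 31.4, 31.4, 9.04 and 10.8 CPM, and *Nefm*, the medium neurofilament subunit, was 31.4, 28.6, 63.3 and 64.9 CPM. *6030458C11Rik* (25.7, 27.2, 63.3 and 63.0 CPM) and *Fam84a* (11.4, 14.6, 37.7 and 34.2 CPM) were higher in both *Setd1a*+/- libraries. None of these was called, except that with no filter on low counts edgeR called *Inhba* (-2.03, FDR 0.00579). Some were separated in the same direction in the other 6 subtypes. There *6030458C11Rik* was 40.7, 28.5, 71.3 and 50.5 CPM, and *Fam84a* 10.1, 16.0, 17.4 and 26.3 CPM. *Wwox* was 29.0, 31.2, 25.7 and 18.2 CPM, whereas the groups overlapped for *Nefm*.

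Markers of the subtype had fold changes below 0 that were not called: *Nnat* -0.50 (SE 0.35), *Npy* -0.87 (SE 0.39), *Oprk1* -0.13 (SE 0.41), *Galnt14* -0.12 (SE 0.29) and *Penk* -0.96 (SE 0.36). When a library was left out, the highest values turned to 0.13 for *Nnat*, 0.31 for *Oprk1* and 0.048 for *Galnt14*, whereas *Npy* and *Penk* stayed below 0. *Penk* and *Pomc* were lower in both *Setd1a*+/- libraries, 2 of the 4 opioid genes tested. The share of cells with *Nnat* was lowest in *Setd1a*+/- 2, where the levels of *Nnat* and *Npy* were also lowest. It did not follow these levels over the other libraries, as WT 2 was highest for both genes without having the largest share. The share is itself read from *Nnat* UMIs, and its part in the fold changes was not tested. Of 11 tested members of the H3K4 methyltransferase complexes, to which SETD1A belongs, 7 had a log2 FC above 0 with a median of 0.09. Of 17 synaptic vesicle genes 8 were above 0 and 9 below (median -0.05). Of 12 genes that the study names for neurons 11 were below 0 with a median of -0.35, but the study picked them from its own tests of this mutant, some of them on these samples, so they are not independent evidence of a direction. No gene of any list was called.

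Whether the genotype difference in DL-Nnat neurons differed from that in the other 6 excitatory subtypes was tested as an interaction in edgeR, with the library as a term. The term was called for 13 of 11006 genes (0.118%), 2 higher (0.0182%) and 11 lower (0.0999%). DESeq2 called 0, with 50 genes at an unadjusted p under 0.05 against 660 by edgeR, and with the replicate block edgeR called 24 genes, which included the 13. Of the 11 others 8 were higher, among them the immediate early genes *Fos* (0.71, FDR 0.00561), *Nr4a1* (0.75, FDR 0.0475) and *Btg2* (0.82, FDR 0.0175). *Nnat* was called too (0.81, FDR 0.00694), which in the other subtypes was 56.3, 53.4, 36.4 and 15.2 CPM. *Rgs4*, *Dst*, *Gadd45g* and *Prune2* were also higher, and *S100a6*, *Acat1* and *Gucy1b1* lower. Among the 13, 4 were haemoglobin genes, near-identical copies between which reads may be split. Of the 1045 haemoglobin UMIs in the DL-Nnat cells of WT 1, 1002 came from a single cell. Without that cell and 2 other cells of *Setd1a*+/- 1 that held 10 or more such UMIs, an alternative chosen after seeing the data, edgeR called 8 genes and none of them was a haemoglobin gene. *Jsrp1* also lost its call there (-1.24, FDR 0.0546).

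*Inhba* had the largest term beside haemoglobin. Its level in the other 6 subtypes was 3.90, 13.4, 8.47 and 21.9 CPM, higher in *Setd1a*+/- than in WT within each replicate, where DL-Nnat neurons were lower (interaction log2 FC -2.61, SE 0.46, edgeR FDR 3.12e-05). Against DL-Etv1 alone the *Inhba* term was -1.90 (FDR 0.548), and against DL-Foxp2 alone -2.03 (FDR 0.903), so it was not called in either. *Thsd7a*, by contrast, was 48.5, 36.3, 84.4 and 55.8 CPM in DL-Nnat neurons and 31.9, 15.5, 14.2 and 13.5 CPM in the others (1.40, SE 0.31, FDR 0.0115). The groups did not overlap in either set of cells, and the directions were opposite. *Thsd7a* rests on cells without *Nnat*, whose share was largest in *Setd1a*+/- 2. In those cells alone its term was 1.20 (SE 0.32, FDR 0.449) and was no longer called. When a library was left out, *Inhba* lost its call without *Setd1a*+/- 2 (-1.69), and *Thsd7a* without WT 1 (1.08) and without *Setd1a*+/- 1 (1.08).

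*Egr1* was higher in both *Setd1a*+/- libraries of DL-Nnat neurons, whereas in the other subtypes it was 268, 227, 347 and 234 CPM, higher in *Setd1a*+/- within each replicate although the groups overlapped (0.69, SE 0.13, FDR 0.000521). *Penk* was 7.16, 8.18, 6.23 and 21.9 CPM in the others (-1.70, SE 0.39, FDR 0.0171). *C1ql3*, a secreted synaptic organiser, was 591, 1180.1, 164 and 834 CPM in DL-Nnat and 261, 585, 84.5 and 840.0 CPM in the others (-0.86, SE 0.12, FDR 1.67e-08). *Igfbp6*, which binds insulin-like growth factors, was 255, 402, 127 and 362 CPM against 90.8, 184, 72.3 and 314 CPM (-0.87, SE 0.15, FDR 1e-05). For both genes the replicate 1 libraries were lower than the replicate 2 libraries of the same genotype in both sets of cells. Without *Setd1a*+/- 2 none of these 4 was called, at 0.32 for *Egr1*, -1.01 for *Penk*, -0.13 for *C1ql3* and -0.45 for *Igfbp6*. *Egr1* and *Penk* also lost their calls without WT 1 (0.66 and -1.49) and without WT 2 (0.69 and -2.05). *Synpr* (-1.26), *Dok5* (-0.79) and *Jsrp1* (-1.23), a protein first known from muscle calcium release, completed the list. When a library was left out, *Synpr* lost its call without WT 2 (-0.11), *Dok5* without WT 1 (-0.78), WT 2 (-0.87) or *Setd1a*+/- 2 (-0.41), and *Jsrp1* without WT 1 (-0.95) or *Setd1a*+/- 2 (-0.74).

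The other 6 subtypes were not mixed alike in the 4 libraries. DL-Foxp2 made up 29.5, 29.5, 29.2 and 14.3% of excitatory neurons, and SL-Myh7, the subtype richest in *Penk*, 5.61, 4.37, 8.09 and 13.0%. *Setd1a*+/- 2 was thus short of the one and rich in the other. An alternative chosen after seeing the data entered the 6 subtypes as separate sums, each with its own level, so that their proportions no longer counted. Beyond the library term, this fit treated the sums of a library as separate observations. Its spread came mostly from the other subtypes, so its FDRs do not rest on libraries as the replicates. EdgeR then called 6 genes, namely *Inhba* (-2.05, SE 0.46, FDR 0.0302), *Thsd7a* (1.52, SE 0.33, FDR 0.0202) and the 4 haemoglobin genes. *Penk* (-0.85, FDR 0.918), *C1ql3* (-0.44, FDR 0.658), *Igfbp6* (-0.53, FDR 0.567), *Synpr* (-0.98, FDR 0.292), *Dok5* (-0.75, FDR 0.12), *Egr1* (0.66, FDR 0.12) and *Jsrp1* (-0.96, FDR 0.567) kept their direction and were not called.

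**Figure D5:**
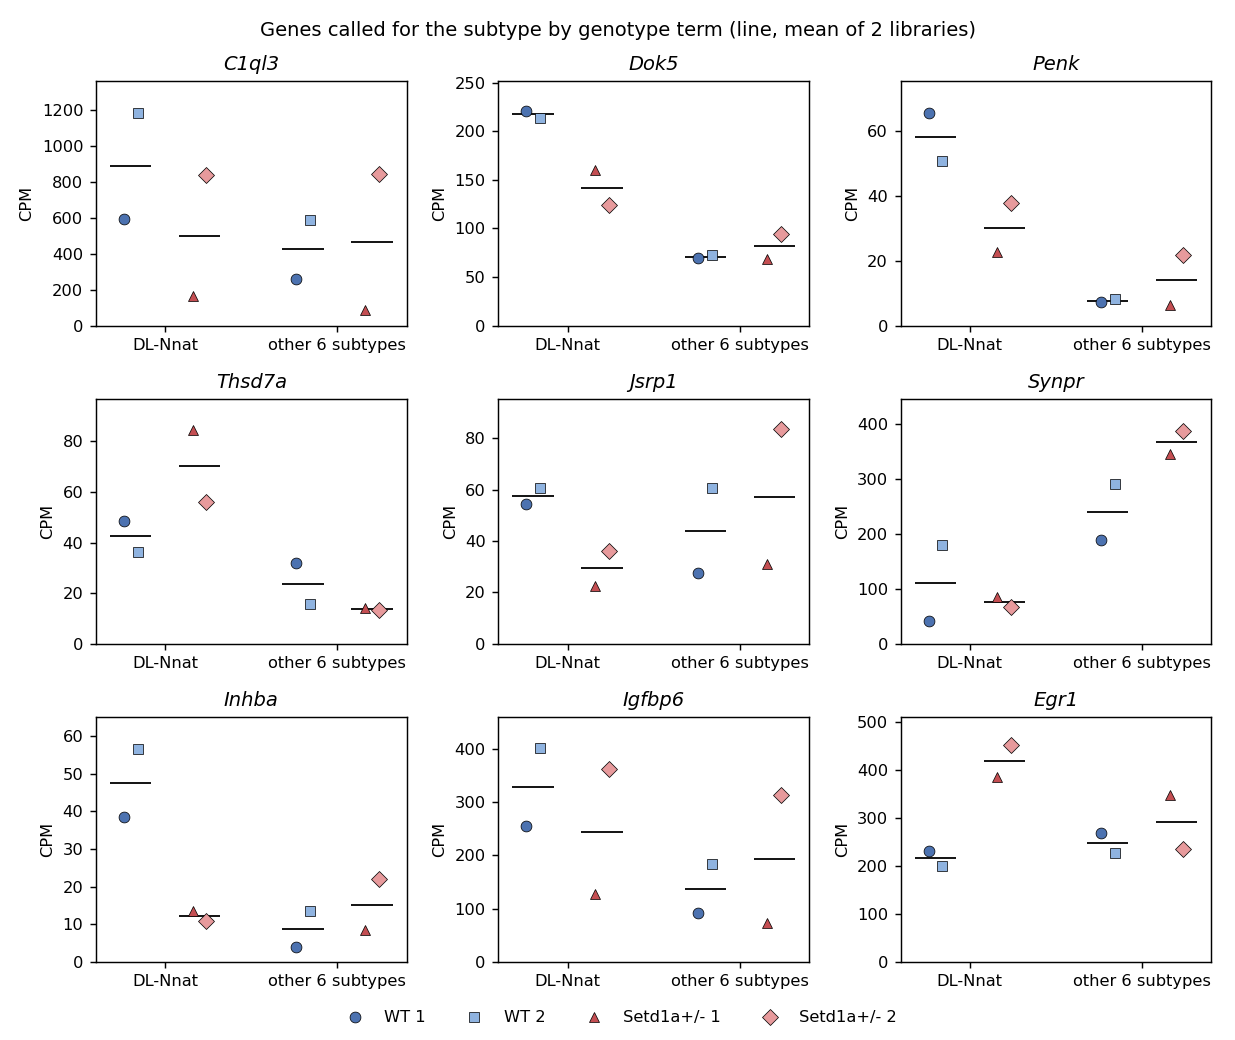
Levels of the 9 called genes that are not haemoglobin (y axes, CPM from 0), in DL-Nnat neurons and in the other 6 excitatory subtypes summed (points, the 4 libraries; lines, means of 2). Inhba is lower in both Setd1a+/- libraries of DL-Nnat neurons (13.6 and 10.8 against 38.5 and 56.5 CPM) and not in the other subtypes. Its Setd1a+/- levels in DL-Nnat neurons rest on 9 and 6 UMIs.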

How the data were processed

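PFC single cells were captured by 10x Chromium in 4 libraries. Per the labels the authors dissociated the tissue with papain and counted reads with Cell Ranger 3.0.2 on mm10, and analysed cells with Seurat 3.2.0 (submitters' processing notes). The deposited matrices hold raw UMI counts for every droplet barcode, 15154268 to 24594416 per library. The deposited annotation names the library and subtype of each cell the authors kept, each with 800 genes or more and a mitochondrial share up to 10%, and holds other information than measurements. Doublet removal is not given in the sources used here and no caller was run. The deposited gene-by-cell tables were not used, because their gene column holds row numbers. Gene coordinates are from the GENCODE annotation of GRCm38 for 30934 of 31053 genes.

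Sums of UMIs per subtype and library were compared between genotypes with edgeR 4.0.16 (quasi-likelihood, TMM, Benjamini-Hochberg, low genes removed by filterByExpr at 10 counts) in R 4.3.3, called at FDR under 0.05 and FC above 1.5; the study tested single cells, which was not repeated. The script was tested on simulated counts. The interaction fit holds library, subtype and subtype by genotype. The SE given with an edgeR log2 FC is its absolute value divided by the square root of the F statistic. It is not a separately estimated error. Alternatives were DESeq2 1.42.0, other scalings and filters, other comparators, a replicate block and leaving out libraries. Per the methods a biological replicate holds 1 WT and 1 mutant library, so equal numbers pair the libraries; replicate deviations of the genotypes correlated at r = 0.49 over 7701 genes. The methods use no block, so the block is an alternative. Ratios of levels use CPM + 5 and genes of at least 50 CPM. Shares carry 95% Wilson intervals, which cover counting error only, and were recomputed on cells thinned to 2000 UMIs. Python 3.11.15 (numpy 2.4.6, pandas 2.3.3, scipy 1.17.1, matplotlib 3.10.9) was used.

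The named genes are the markers and lists, the 15 highest and 10 lowest ratios with 1 sign in 4 libraries, the 8 genes per direction with the smallest p among those separated by genotype, and the 5 most like *Nnat*. Other genes, such as *Ramp3*, *S100a6* and the replicate and interaction genes, were named after their values were seen. The cells, lists and tests were chosen with earlier results of these data known.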

Additional observations from a re-analysis of the deposited data

Results flagged for a closer look

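The genotype difference of 13 genes differed between DL-Nnat neurons and the other 6 excitatory subtypes by the interaction term of edgeR (FDR under 0.05, FC above 1.5). Higher were *Thsd7a* (log2 FC 1.40) and *Egr1* (0.69). Lower were *Inhba* (-2.61), *Penk* (-1.70), *Synpr* (-1.26), *Jsrp1* (-1.23), *Igfbp6* (-0.87), *C1ql3* (-0.86) and *Dok5* (-0.79), and the haemoglobin genes *Hba-a2* (-7.36), *Hba-a1* (-7.09), *Hbb-bs* (-6.49) and *Hbb-bt* (-4.62). *Inhba* was called in 10 of the 15 fits run, the main one included, *Igfbp6* in 10, *C1ql3* and *Synpr* in 9, *Thsd7a* in 8, *Egr1* in 7, *Dok5* and *Penk* in 6, and *Jsrp1* in 4. Of the haemoglobin genes *Hbb-bs* was called in 13, *Hba-a1* and *Hba-a2* in 10 and *Hbb-bt* in 9. A single cell held 1002 of the 1045 haemoglobin UMIs in the DL-Nnat cells of WT 1. Without the haemoglobin-rich cells no haemoglobin gene was called. The fits reuse the same libraries, so these counts are not independent support. With the subtypes as separate sums, *Inhba* and *Thsd7a* were the only called genes that are not haemoglobin.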

How the results depend on the processing

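The depth of 555116 to 1433835 UMIs per library and 2 libraries per genotype limit every test, and *Setd1a* at 4 to 23 UMIs could not be tested. Calls between genotypes numbered 8 with no filter on low counts, 2 with the replicate block, 0 to 10 when a library was left out (5 without WT 2, 10 without *Setd1a*+/- 1, 3 without *Setd1a*+/- 2) and 0 otherwise. Interaction calls numbered 13 and became 6 against DL-Foxp2 alone, 1 (*Hbb-bs*) against DL-Etv1 alone, 24 with the replicate block, 0 in DESeq2, 6 with the subtypes as separate sums, 2 (*Hbb-bs* and *Igfbp6*) in DL-Nnat cells without a *Nnat* UMI, 8 without the haemoglobin-rich cells, and 7 to 50 when a library was left out (50 without *Setd1a*+/- 1, 7 without *Setd1a*+/- 2). In DL-Nnat cells with a *Nnat* UMI there were 13 calls, of which 8 were shared with the main fit. *Dok5*, *Penk*, *Thsd7a*, *Jsrp1* and *Igfbp6* were not among them. The causes of these changes were not tested. Of 177 refitted interaction values of the 13 genes, 3 reversed: *Thsd7a* to -4.55 (SE 4.64) in cells with a *Nnat* UMI, *Hbb-bt* to 1.73 without WT 1 (range -5.36 to 1.73 when a library was left out) and *Hba-a1* to 0.42 without the haemoglobin-rich cells. Of 287 refitted genotype values 8 reversed: *Nnat* without WT 2 (range -0.92 to 0.13 when a library was left out), *Oprk1* without WT 2 or *Setd1a*+/- 2 (-0.82 to 0.31) and in cells with a *Nnat* UMI (0.23), and *Galnt14* without WT 1 or *Setd1a*+/- 2 (-0.29 to 0.048), in cells with a *Nnat* UMI (0.0088) and in those without (0.12). The difference in share stayed below 0 in all 7 alternatives (-5.37 to -1.30 percentage points when a library was left out, and p = 0.5 in the exact permutation test within replicates, the block), and 30 of 30 refitted marker ratios kept their direction. The block changed no call beyond the 2 and the 11 genes given in the report.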
